A study of Mus musculus with 6 samples.

Results

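A set of 10 genes of fibroblast growth factor (FGF) signaling was followed, the ligand genes Fgf2, Fgf4, Fgf5, Fgf8, Fgf15 and Fgf17, and the receptor genes Fgfr1, Fgfr2, Fgfr3 and Fgfr4. They were chosen by name, with earlier results of these data known, as 10 of the 25239 genes in the count table. All 10 were among the 15256 genes with enough counts to be tested. RNA of thyroid organoids was sequenced in bulk at day 31 of a differentiation protocol, with 2 libraries in each of 3 groups, and the libraries held 14898409 to 20637959 counts. All groups came from 1 line of mouse embryonic stem cells, derived from G4 RosaLuc and carrying the inserts TRE-Nkx2-1-Pax8 and bTg-NES-BrafV637E-ERT2, in which doxycycline (1 µg/ml for 5 days) drove Nkx2-1 and Pax8 and 8-Br-cAMP (2 weeks) matured the follicles. All groups also carried the BrafV637E-ERT2 fusion, the mouse counterpart of the human oncogene, behind a bovine thyroglobulin promoter, which limits it to cells that express thyroglobulin. The cAMP group received 8-Br-cAMP and no tamoxifen, and by the methods controls were given ethanol as the vehicle. The 4OHT group received 8-Br-cAMP and 1 µM of 4-hydroxytamoxifen (4OHT), which activates the fusion, for 5 days. The PD+LY group received 8-Br-cAMP and 1 µM of 4OHT together with the MEK inhibitor PD0325901 (250 nM) and the PI3K inhibitor LY204002, as the labels spell it (5 µM), for 3 days. By the methods, inhibitors were added to organoids that had already been on 4OHT for some days. If that schedule also held for the sequenced organoids, the total time on 4OHT was longer in PD+LY than in 4OHT. The effect of that time and of the inhibitors could then not be told apart. Several wells were pooled for each library, the organoids had been enriched for follicles but still held other cells, and the sources used here do not say whether replicates were separate differentiations, so p-values measure only the spread between these libraries.

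FGFs are secreted proteins that bind receptor tyrosine kinases at the cell surface together with heparan sulfate chains. The receptors signal through the adaptors FRS2 and GRB2 to RAS, RAF, MEK and ERK and to PI3K, so that BRAF and both inhibitor targets lie downstream of them. In the embryo, FGF10 acting on FGFR2 is needed for the thyroid gland to form, FGF4 made by pluripotent cells drives them out of the naive state, Fgf5 marks the epiblast after implantation, and Fgf8 and Fgf17 are expressed in the primitive streak.

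The upstream sequences of 4 members are given because their transcripts behaved differently while the bases shown overlap no annotated exon: Fgf5 as a ligand gene that fell with 4OHT, Fgf4 as the ligand gene with the highest level, and Fgfr2 and Fgfr4 as the receptor genes that moved in opposite directions under the inhibitors. They are RefSeq sequences of GRCm38.p6, written 5′ to 3′ on the strand of the gene and ending at the base before the annotated start, with matches to the searched motifs in capitals. For Fgfr4 only the first 72 of the 250 bases are printed, since the rest is exonic in GENCODE M21. The bases shown for Fgf4 and Fgfr2 lie in introns of longer transcripts of these genes in that annotation. RefSeq windows were found for 6 of the 10 members, and those of Fgf8, Fgf15, Fgf17 and Fgfr1 were not used here.
Fgf5, chr5:98253934-98254183, + strand: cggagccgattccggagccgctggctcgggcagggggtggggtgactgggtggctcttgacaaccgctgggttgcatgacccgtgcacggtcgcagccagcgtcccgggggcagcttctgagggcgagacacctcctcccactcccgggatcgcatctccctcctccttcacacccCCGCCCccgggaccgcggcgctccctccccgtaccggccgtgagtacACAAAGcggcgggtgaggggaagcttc
Fgf4, chr7:144861136-144861385, + strand: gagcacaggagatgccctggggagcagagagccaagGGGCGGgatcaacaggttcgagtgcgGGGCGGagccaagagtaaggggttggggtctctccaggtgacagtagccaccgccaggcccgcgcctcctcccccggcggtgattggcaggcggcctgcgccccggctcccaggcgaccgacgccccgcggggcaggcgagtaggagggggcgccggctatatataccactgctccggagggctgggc
Fgfr2, chr7:130266809-130267058, - strand: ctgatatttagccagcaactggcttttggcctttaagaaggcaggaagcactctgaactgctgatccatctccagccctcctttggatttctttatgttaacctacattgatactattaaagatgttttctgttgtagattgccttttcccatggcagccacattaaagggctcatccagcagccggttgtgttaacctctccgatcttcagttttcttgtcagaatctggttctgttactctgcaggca
Fgfr4, chr13:55152568-55152639, + strand: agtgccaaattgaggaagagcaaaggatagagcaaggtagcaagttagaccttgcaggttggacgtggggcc

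A set of 7 motifs was searched on both strands of the 250 bases before each of 32851 RefSeq starts. The letters searched were CCGGAAG for ETS factors, TGANTCA for AP-1, TGACGTCA for the cAMP response element (CRE), ATGCAAAT for the octamer of POU factors, ACAAAG for SOX factors, TATAAA for the TATA box, and GGGCGG for the GC box. In the members' windows matches to different motifs did not overlap. Fgf4 held 2 GC boxes, Fgf5 held 1 GC box and 1 SOX match, and Fgfr2 held no match to any of them. Fgfr4 held 2 GC boxes, outside the bases printed, and Fgf2 held 1. The 2 annotated starts of Fgfr3 held 3 and 2 GC boxes, and the latter 2 overlapped by a base. Of all windows 32.7% held a GC box and 16.5% a SOX match. The ETS and AP-1 letters, found in 6.91% and 6.75% of all windows, were in none of the members' windows. The CRE, octamer and TATA letters, which 1.55%, 1.60% and 12.4% of all windows held, were also in none of them. The 250 bases before Fgf4 and Fgf5 were 71.2% and 70.8% G or C, and those before Fgfr2 44.0%.

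The ligand genes fell into 3 levels. Levels of different genes were compared as CPM, the counts in every 1000000 of a library total normalized by the TMM method, per kb of exon. On this scale Fgf4 stood at 39.8 ± 1.93 in the cAMP libraries, 42.4 ± 3.76 in the 4OHT libraries and 48.7 ± 0.322 under the inhibitors (SD, n = 2). In cAMP the next levels per kb were 5.74 ± 1.58 for Fgf5, 3.95 ± 0.586 for Fgf15, 2.32 ± 1.63 for Fgf8 and 2.15 ± 0.351 for Fgf17 (SD, n = 2). Of these neighbours, Fgf8 and Fgf17 did not differ beyond their spread, and the Fgf8 libraries stood too far apart to place it against Fgf15. With the length of the longest transcript the level of Fgf15 was 6.68 ± 0.991 (SD, n = 2), above the mean of Fgf5, so the order of these 2 genes depends on the length used. Fgf2 was lowest, at 0.0376 ± 0.0125 (SD, n = 2). Of the summed level per kb of the 6 ligand genes, Fgf4 made up 73.9% ± 6.58 in cAMP libraries, 94.96% ± 0.223 in 4OHT libraries and 97.8% ± 0.469 in PD+LY libraries (SD, n = 2). The share of Fgf4 was higher in both treated groups, and in 4OHT its own level overlapped that of cAMP.

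**Figure D1:**
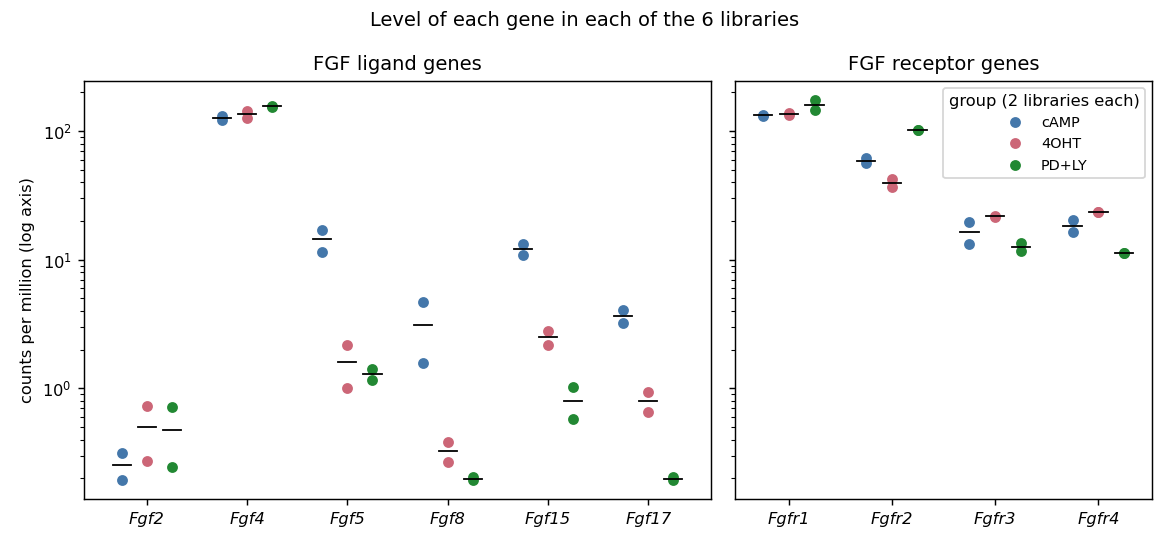
CPM on a log axis for each of the 6 ligand genes (left) and 4 receptor genes (right), with 1 point a library, a bar at the mean of 2 libraries and colours for the groups cAMP, 4OHT and PD+LY. Fgf5, Fgf8, Fgf15 and Fgf17 sit highest in both cAMP libraries, Fgf4 stays between 123 and 156 CPM, and Fgfr2 is lowest in 4OHT and highest in PD+LY.

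The first comparison, 4OHT against cAMP, asks what 4OHT did in organoids that carry the BrafV637E fusion. No library had 4OHT without the fusion, so activation of BrafV637E and other effects of 4OHT cannot be told apart. In all, 4 ligand genes (Fgf5, Fgf8, Fgf15, Fgf17) and 1 receptor gene (Fgfr2) fell and no member rose, where fell and rose mean an adjusted p under 0.05 in edgeR's quasi-likelihood test with Benjamini-Hochberg adjustment over all genes tested. Among all genes tested 8.39% changed in this comparison, 4.04% upward and 4.35% downward. The 4 ligand genes also passed a 2-fold change, as did 2.67% of all genes, 1.17% upward and 1.51% downward. In 7 of the 10 members the libraries of the groups did not overlap, against 58.5% of all genes. An exact permutation test of a single gene with 2 libraries against 2 cannot go below 0.3333, so the calls rest on the fit over all genes. The median log2 fold change of the 6 ligand genes was -2.24 and that of the 4 receptor genes 0.19, beside -0.0021 over all genes tested. The 6 other secreted FGF ligand genes that were tested had a median of 0.17, and none of them changed. Since the members were chosen with earlier results of these data known, their values beside those of all genes are a description and not a test. In bulk RNA fewer cells of a type and less RNA per cell cannot be told apart, here and in every comparison that follows.

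**Figure D2:**
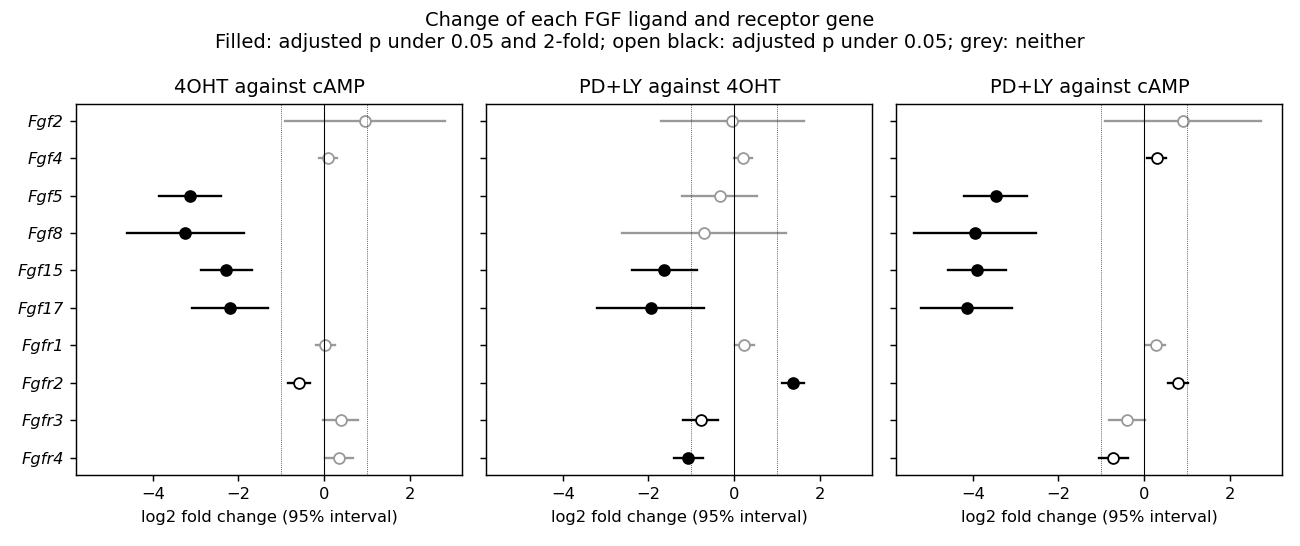
Log2 fold change of the 10 members in the 3 comparisons, with 95% intervals from the edgeR fit, dotted lines at 2-fold, filled points for an adjusted p under 0.05 with a 2-fold change, open black points for the adjusted p alone and grey points for neither. The intervals of Fgf5, Fgf8, Fgf15 and Fgf17 lie below 0 in both comparisons against cAMP, and Fgfr2 lies on opposite sides of 0 in 4OHT against cAMP and PD+LY against 4OHT.

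Fgf5 encodes a ligand of the epiblast that in adult skin ends hair growth, and lies on chromosome 5 (98254184 to 98277030, + strand, GRCm38). It stood at 11.6 and 17.2 CPM in the cAMP libraries, 1.00 and 2.19 in 4OHT, and 1.43 and 1.17 in PD+LY. Both 4OHT and both PD+LY libraries lay below both cAMP libraries, and the 4OHT and PD+LY libraries overlapped. It fell by 3.14 on the log2 scale with 4OHT (SE 0.33, adjusted p = 0.000238) and stood 3.47 lower in PD+LY than in cAMP (log2 fold change -3.47, SE 0.34, adjusted p = 2.65e-05). Between PD+LY and 4OHT the difference was -0.33 (95% interval -1.21 to 0.54, adjusted p = 0.585), so neither a return toward cAMP of more than 0.54 nor a further drop of more than 1.21 lay within the interval. The calls against cAMP held without any 1 library, with the first at -3.84 without 4OHT library 2.

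Fgf15, the mouse counterpart of human FGF19, encodes an intestinal hormone that limits bile acid synthesis and is also made in the embryonic brain. It lies on chromosome 7 (144896531 to 144900953, + strand), where its exons overlap the antisense genes Gm26793 and Gm39119, and counting without strand cannot separate their reads. Its level was 10.8 and 13.4 CPM in cAMP, 2.80 and 2.19 in 4OHT, and 1.02 and 0.584 in PD+LY. The 3 groups did not overlap, and each step was downward. It fell by 2.28 on the log2 scale with 4OHT (SE 0.27, adjusted p = 0.000555) and by a further 1.63 under the inhibitors (SE 0.35, adjusted p = 0.00635). In PD+LY it was 15.1-fold lower than in cAMP (adjusted p = 6.44e-06).

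Fgf17 and Fgf8 belong to the same FGF subfamily, which patterns the midbrain and hindbrain. Fgf17 (chromosome 14, 70636203 to 70642268, - strand) had 51 and 83 counts in cAMP, 14 and 12 in 4OHT, and 4 and 4 in PD+LY. It showed the same order as Fgf15, without overlap between groups. It fell by 2.20 on the log2 scale with 4OHT (SE 0.41, adjusted p = 0.00755) and by 1.95 under the inhibitors (SE 0.58, adjusted p = 0.0306). The first call was lost without cAMP library 2 (adjusted p = 0.0770), 4OHT library 1 (0.0576) or 4OHT library 2 (0.0950), and the second with any of its 4 libraries left out (adjusted p = 0.0756 to 0.152) or with only its own groups in the fit (0.0548). Against cAMP it stood 17.7-fold lower in PD+LY (adjusted p = 9.85e-05), a call that held under the alternatives that kept all libraries of the 2 groups. With 1 library left out, the log2 fold change of Fgf17 there was -4.30 to -3.95. No PD+LY library reached the count minimum, so Fgf17 entered the tests through the cAMP and 4OHT libraries, where it was higher.

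Fgf8, an organizer signal of the streak, limb and brain, lies on chromosome 19 (45736798 to 45742915, - strand). It had 25 and 96 counts in cAMP, 4 and 7 in 4OHT, and 4 and 4 in PD+LY. Both cAMP libraries lay above the other 4, and cAMP library 2 held most of the signal. The gene passed the count minimum through the cAMP libraries alone, so among the genes tested it had to be higher in cAMP, although it was also called with no minimum. Its log2 fold change was -3.24 with 4OHT (SE 0.63, adjusted p = 0.00936) and -3.95 in PD+LY against cAMP (SE 0.66, adjusted p = 0.00105). Without cAMP library 2 the first was -2.23 (adjusted p = 0.143), without 4OHT library 1 -3.02 (0.103) and without 4OHT library 2 -3.53 (0.0740), while the second passed without any 1 library, at -2.93 without cAMP library 2. Between PD+LY and 4OHT it did not pass (-0.71, 95% interval -2.62 to 1.20), which at these counts leaves large changes in either direction within the interval.

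Fgf4 encodes the ligand that acts on the cells of the early embryo. It had 131.6 and 122.9 CPM in cAMP, 126.9 and 143.9 in 4OHT, and 154.9 and 156.4 in PD+LY. The cAMP and 4OHT libraries overlapped, and both PD+LY libraries were above all others. The log2 difference was 0.09 with 4OHT (95% interval -0.12 to 0.30, adjusted p = 0.622) and 0.20 under the inhibitors (95% interval -0.011 to 0.41, adjusted p = 0.155). Against cAMP, PD+LY was 1.22-fold higher (log2 0.29, SE 0.097, adjusted p = 0.0451). That call was lost without cAMP library 1 (adjusted p = 0.108), cAMP library 2 (0.242) or PD+LY library 2 (0.0602) and with only the 2 groups in the fit (0.0675).

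Fgf4 and Fgf15 are neighbours on chromosome 7, with Fgf3 on the other side of Fgf4. Fgf3 (144838083 to 144844436) ends 2930 bases before the annotated start of Fgf4 (144847367 to 144865243), and Fgf4 ends 31287 bases before Fgf15. All are on the + strand, and the RefSeq start of Fgf4 lies further in, just after 144861385. Of the 3, Fgf3 had 94 and 160 counts in cAMP, 100 and 97 in 4OHT, and 150 and 146 under the inhibitors, and passed no test (log2 -0.20, 0.30 and 0.10 in the 3 comparisons). Of the 3 ligand genes of this stretch Fgf15 was the one called with 4OHT.

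Fgf2, a ligand secreted without a signal peptide, was near the limit of detection. It lies on chromosome 3 (37348346 to 37410108, + strand), where its exons overlap Nudt6 on the other strand and Gm43439. It had 5 and 4 counts in cAMP, 11 and 5 in 4OHT, and 14 and 5 in PD+LY. In both treated groups library 1 held more counts than library 2, and all groups overlapped. No comparison passed, and the 95% interval of 4OHT against cAMP ran from -0.91 to 2.82, so a change was not detectable at this depth.

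Among the receptors, Fgfr1 had the highest level per kb, at 13.4 ± 0.224 in the cAMP libraries, 13.7 ± 0.290 in 4OHT and 16.2 ± 2.10 under the inhibitors (SD, n = 2). In cAMP Fgfr2 (5.71 ± 0.389) and Fgfr4 (5.20 ± 0.755) did not differ beyond their spread on this length, but with the length of the longest transcript they stood apart (13.3 ± 0.907 and 5.55 ± 0.804), and Fgfr3 was lowest (2.31 ± 0.639; SD, n = 2). In PD+LY the order was Fgfr1, Fgfr2 (9.88 ± 0.0951), Fgfr4 (3.17 ± 0.0153) and Fgfr3 (1.77 ± 0.190), each apart from the next. The summed level per kb of the 4 receptor genes was 25.2 and 28.1 in cAMP, 26.7 and 27.6 in 4OHT, and 29.7 and 32.3 in PD+LY. Fgfr2 made up 21.5% ± 0.156 of it in cAMP libraries, 14.0% ± 1.06 in 4OHT libraries and 32.0% ± 2.20 in PD+LY libraries (SD, n = 2). Fgfr4 made up 19.5% ± 1.37, 24.5% ± 0.405 and 10.3% ± 0.559 (SD, n = 2). With the length of the longest transcript in place of all exons the share of Fgfr2 was 27.2%, 18.5% and 37.8% and that of Fgfr4 11.3%, 14.8% and 5.55%, each in the same order of groups. With that length Fgfr2 also stood above Fgfr4 in 4OHT (8.87 ± 0.891 and 7.09 ± 0.0595), where with all exons it stood below (3.80 ± 0.382 and 6.65 ± 0.0559; SD, n = 2).

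**Figure D3:**
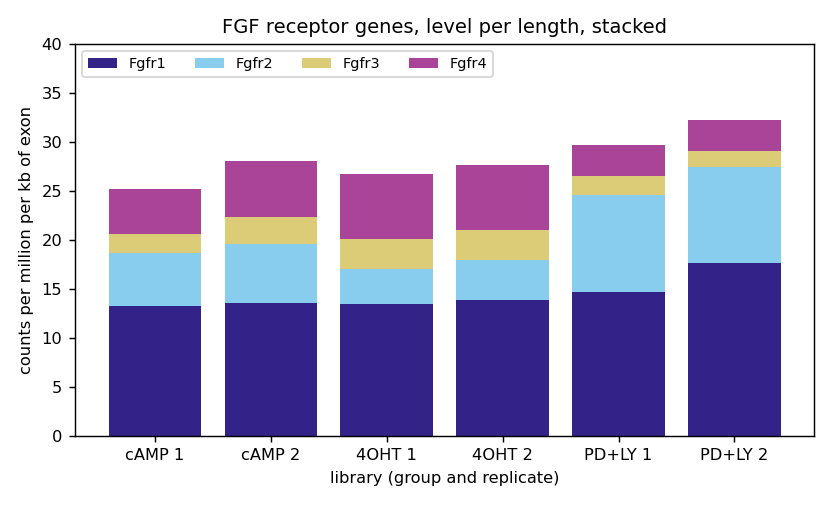
Stacked bars of the 4 receptor genes in each of the 6 libraries, in CPM per kb of exon, with colours for Fgfr1 to Fgfr4 from the bottom up. The band of Fgfr2 is narrowest in the 4OHT libraries and widest in the PD+LY libraries, and that of Fgfr4 is narrowest in PD+LY, while Fgfr1 is the widest band throughout.

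In the second comparison, PD+LY against 4OHT, which asks what the inhibitors did to organoids with active BrafV637E, 3 of the 4 receptor genes changed and in unlike directions. Fgfr2 rose, Fgfr3 and Fgfr4 fell, and of the ligand genes Fgf15 and Fgf17 fell. The 5 changed members stand beside 22.7% of all genes tested that changed (10.7% up, 12.1% down). Past the 2-fold change as well were Fgfr2 upward and Fgfr4, Fgf15 and Fgf17 downward, beside 7.26% of all genes, 2.35% upward and 4.90% downward. The libraries of the groups did not overlap in 8 of the 10 members, against 62.3% of all genes. The comparison shares its 4OHT libraries with the first, so the values of a member in the 2 comparisons are not independent.

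Fgfr2 encodes the receptor for FGF7 and FGF10 in epithelia, in the splice form with exon IIIb. It stood at 56.2 and 61.8 CPM in cAMP, 36.5 and 42.1 in 4OHT, and 102.7 and 101.3 in PD+LY. The 3 groups did not overlap. It fell by 0.59 on the log2 scale with 4OHT (SE 0.11, adjusted p = 0.00947), less than 2-fold, and that call was lost without cAMP library 2 (-0.51, adjusted p = 0.0754) or 4OHT library 1 (-0.49, 0.159). Under the inhibitors it rose 2.59-fold (log2 1.38, SE 0.11, adjusted p = 1.58e-05), to 1.73-fold above cAMP (log2 0.79, SE 0.11, adjusted p = 0.000326), and these calls held in every alternative run. In GENCODE M21 the gene spans 130162451 to 133123350 on the - strand of chromosome 7 because of a long transcript whose exons overlap Ctbp2 on the same strand. Counts per gene cannot show which splice form changed.

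Fgfr4 encodes the receptor for FGF15 in liver, where it works with the co-receptor beta-Klotho. It lies on chromosome 13 (55152640 to 55168759, + strand). Its level was 16.5 and 20.3 CPM in cAMP, 23.4 and 23.7 in 4OHT, and 11.2 and 11.3 in PD+LY. Here too the groups did not overlap, with 4OHT highest and PD+LY lowest, the reverse of the order in Fgfr2. It fell 2.09-fold under the inhibitors (log2 -1.07, SE 0.15, adjusted p = 0.000621), with or without any 1 library. The difference with 4OHT did not pass (log2 0.35, 95% interval 0.023 to 0.68, unadjusted p = 0.0380, adjusted p = 0.180, edgeR). In PD+LY it stood below cAMP (log2 -0.72, SE 0.15, adjusted p = 0.00544), except without cAMP library 2 (-0.55, adjusted p = 0.0778).

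Fgfr3, the receptor that restrains growth of cartilage, lies on chromosome 5 (33721674 to 33737068, + strand) and overlaps G630022F23Rik on the other strand. It stood at 13.3 and 19.7 CPM in cAMP, 22.0 and 21.5 in 4OHT, and 13.6 and 11.7 in PD+LY. Both 4OHT libraries lay above all others, and the cAMP and PD+LY libraries overlapped. It fell by 0.78 on the log2 scale under the inhibitors (SE 0.19, adjusted p = 0.0117), less than 2-fold, and the call was lost without 4OHT library 1 (adjusted p = 0.0731) or 4OHT library 2 (0.0757). The other comparisons did not pass (log2 0.39 with 4OHT, adjusted p = 0.227, and -0.39 in PD+LY against cAMP, adjusted p = 0.152), although the latter passed without cAMP library 1 (-0.64, adjusted p = 0.0366).

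Fgfr1, the main FGF receptor of mesenchyme and of many progenitor cells, lies on chromosome 8 (25513654 to 25575718, + strand) and overlaps Gm16159 on the other strand. It had 130.9 and 134.1 CPM in cAMP, 133.0 and 137.1 in 4OHT, and 144.8 and 174.2 in PD+LY. The cAMP and 4OHT libraries overlapped, and the PD+LY libraries lay above them but apart from each other. The log2 difference was 0.03 with 4OHT (95% interval -0.20 to 0.25), 0.24 under the inhibitors (95% interval 0.014 to 0.47, adjusted p = 0.115) and 0.27 in PD+LY against cAMP (95% interval 0.042 to 0.49, adjusted p = 0.0777). Without PD+LY library 1 these last 2 became 0.37 (adjusted p = 0.0122) and 0.40 (0.00603).

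The third comparison, PD+LY against cAMP, asks how far the organoids under inhibitors stood from those without active BrafV637E. It shares all its libraries with the first 2. In all, 7 members changed, Fgf4 and Fgfr2 upward and Fgf5, Fgf8, Fgf15, Fgf17 and Fgfr4 downward, beside 25.7% of all genes tested (12.1% up, 13.7% down). Past 2-fold were the ligand genes Fgf5, Fgf8, Fgf15 and Fgf17, all downward, beside 9.24% of all genes, 3.00% upward and 6.24% downward. The libraries did not overlap in 8 of the 10 members, against 61.4% of all genes. None of the 4 ligand genes that fell with 4OHT was called higher in PD+LY than in 4OHT, whereas Fgfr2 was.

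The genes whose log2 CPM over the 6 libraries ran most like a member's were looked up among 12223 or 12224 genes that averaged 50 counts or more, as a description, since the 6 libraries form 3 groups and share their depth. For Fgf5 they were Cer1 (Pearson r = 0.994), Adgra3 (0.992) and Arl4c (0.992). For Fgf15 they were Prxl2a (0.999), Cacna1b (0.996) and Dcpp2 (0.996), and for Fgf17 Cdc14a (0.997), Cacna1b (0.996) and Myrf (0.995). Smo, Vdac2 and Oasl2 were nearest to Fgf8 (0.993, 0.991 and 0.991). Mesd, Alkbh6 and Dpp6 were nearest to Fgfr2 (0.998, 0.996 and 0.994), and Sec61a1, Src and Ryr1 to Fgfr4 (0.996, 0.996 and 0.994). Between members, r was 0.992 for Fgf15 with Fgf17 and 0.970 for Fgf5 with Fgf8.

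Other secreted FGF ligands were mostly low. Of 12 listed, 6 were tested (Fgf1, Fgf3, Fgf7, Fgf10, Fgf21, Fgf23), and none changed with 4OHT. Fgf10, the ligand of the thyroid mesenchyme, had 25.6 and 22.6 CPM in cAMP, 23.0 and 21.3 in 4OHT, and 18.0 and 13.8 in PD+LY, and was lower in PD+LY than in cAMP (log2 -0.60, SE 0.16, adjusted p = 0.0173). Fgf1, which binds all FGF receptors, was also lower in PD+LY than in cAMP (-1.37, SE 0.33, adjusted p = 0.0105). Fgf23, a phosphate hormone, fell under the inhibitors (-2.95, SE 0.77, adjusted p = 0.0175) from 18 and 49 counts in 4OHT to 4 and 6. Of the intracellular FGF homologous factors, which bind sodium channels and not receptors, Fgf11 and Fgf13 were tested and both were lower in PD+LY than in cAMP (-0.54 and -1.34, adjusted p = 0.0422 and 0.0352).

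Of 8 co-receptors and binding proteins, 7 were tested. Fgfbp1, which releases FGFs from the matrix, fell with 4OHT (log2 -1.01, SE 0.21, adjusted p = 0.0142), from 9.37 and 8.33 CPM to 4.07 and 4.66. Flrt1 fell under the inhibitors (-1.52, SE 0.43, adjusted p = 0.0252), and Fgfbp3 was lower in PD+LY than in cAMP (-2.56, SE 0.58, adjusted p = 0.00706). Klb, which encodes beta-Klotho, had 11.3 and 14.6 CPM in cAMP, 12.2 and 16.5 in 4OHT, and 10.3 and 8.61 in PD+LY, and passed in no comparison (adjusted p = 0.0511 in PD+LY against 4OHT). Kl, the other Klotho co-receptor, was not tested, at 0 to 2 counts a library.

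Of the genes of heparan sulfate, which holds FGF on its receptor, few changed with 4OHT and several rose under the inhibitors. Of 12 synthesis and editing genes 5 rose and none fell in PD+LY against 4OHT (Ndst1, Hs2st1, Hs6st1, Hs3st1, Sulf2; log2 0.40 to 0.74), none past 2-fold, with a list median of 0.34 beside 0.0077 over all genes. Among all genes tested 10.7% rose and 12.1% fell in that comparison. The sulfotransferase gene Hs6st1 had 112.8 and 110.9 CPM in 4OHT and 182.6 and 191.7 in PD+LY. With 4OHT only Sulf1, which removes sulfate, changed in this list (-0.81, SE 0.13, adjusted p = 0.00316). Of 11 tested proteoglycans Sdc1 and Sdc3 rose with 4OHT (0.69 and 0.65), and Gpc1 and Sdc2 rose and Gpc3 and Sdc1 fell under the inhibitors. Genes of these lists that are named without a 2-fold change were chosen after their values were seen, here and in the adaptors and feedback genes.

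Of 11 receptor adaptors none changed with 4OHT. Frs2, the docking protein of the receptors, rose under the inhibitors (log2 0.46, adjusted p = 0.00874), as did Grb2 (0.57, adjusted p = 0.0011) and Sos2 (0.46, adjusted p = 0.0209). None fell, and the list median was 0.00017. Among all genes tested 10.7% rose and 12.1% fell in this comparison.

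Feedback regulators and ETS factors, whose transcripts ERK activity is known to raise, fell under the inhibitors in 11 of 14 genes, 7 of them past 2-fold. The list median was -1.04. Over all genes tested 12.1% fell in this comparison, 4.90% past 2-fold as well, and the median was 0.0077. Spry4, a Sprouty inhibitor of receptor signaling, went from 21.1 and 20.1 CPM in 4OHT to 0.255 and 0.243 in PD+LY (log2 -6.33, SE 0.27, adjusted p = 1.18e-07). Etv4 went from 36.8 and 36.6 to 0.611 and 0.389 (-6.18, SE 0.22, adjusted p = 2.98e-08), and the phosphatase gene Dusp4 fell by 3.92 on the log2 scale (SE 0.17, adjusted p = 1.18e-07). With 4OHT the same list was split, with Etv4 higher (0.80, SE 0.14, adjusted p = 0.0064) and Spry1, Spred2, Il17rd, Dusp6 and Etv5 lower (-0.93 to -0.39), none past 2-fold, and a list median of -0.40. Etv5, at 526.2 and 469.1 CPM in cAMP, 339.1 and 343.4 in 4OHT, and 384.9 and 423.6 under the inhibitors, was among the 3 genes of this list that did not fall under the inhibitors.

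**Figure D4:**
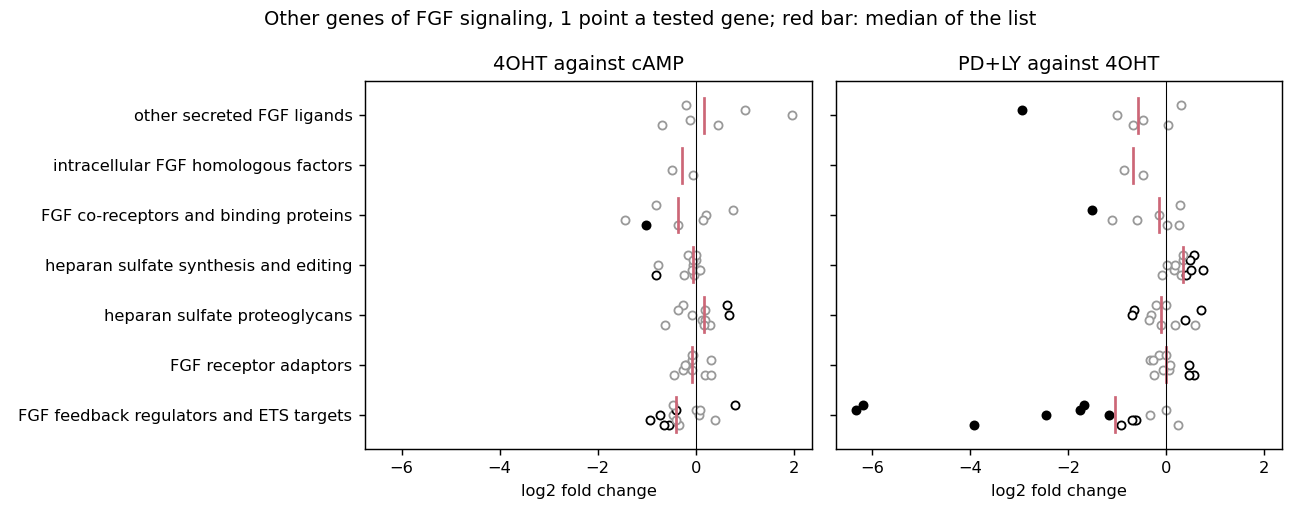
Log2 fold change of every tested gene in 7 lists of FGF signaling genes, 4OHT against cAMP on the left and PD+LY against 4OHT on the right, with filled points for an adjusted p under 0.05 with a 2-fold change, open black points for the adjusted p alone, grey points for neither and a red bar at the list median. The feedback regulators and ETS targets reach from -6.33 to 0.24 under the inhibitors, while the other lists stay mostly within 1 of 0.

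Markers of the cells that the organoids could hold moved with several members. All 7 thyroid genes of the list were detected in every library (summed level 559 to 1942 CPM). The naive pluripotency genes summed to 3252 to 4415 CPM, with 3 of 8 rising with 4OHT (Klf4, Tfcp2l1, Dppa5a). These sums are over different genes and not per kb, so they do not rank the amounts of the cell types. The 6 primed pluripotency genes (Otx2, Dnmt3b, Pou3f1, Sall2, Fst, Sox3) all fell with 4OHT, as Fgf5 did, and none was at 0. Their summed level was 581 to 584 CPM in cAMP, 289 to 310 in 4OHT and 277 to 282 in PD+LY. Between 4OHT and PD+LY they did not move together, since 1 of the 6 rose and 2 fell. The mean of Otx2 went from 106.7 CPM in 4OHT to 140.6 in PD+LY, that of Dnmt3b from 152 to 91.7. That of Pou3f1 went from 6.53 to 1.64. Of 6 tested genes of the primitive streak list Cer1 and Wnt3 fell with 4OHT, as Fgf8 and Fgf17 did. Cer1 had 104 and 308 counts in cAMP, 0 and 2 in 4OHT, and 0 in both PD+LY libraries. It passed the count minimum through the cAMP libraries alone. T, Eomes, Tbx6 and Gsc were not called with 4OHT, and the means of Tbx6 and Gsc were higher there. The summed list stood at 21.3 to 31.2 CPM in cAMP and 8.34 to 11.03 in 4OHT, while Cer1 alone went from a mean of 10.8 to 0.055. Under the inhibitors Wnt3 (2 and 9 counts in 4OHT, 49 and 27 with the inhibitors; log2 2.51, edgeR adjusted p = 0.0116) and Gsc (26 and 17 counts, then 50 and 101; edgeR adjusted p = 0.0376) rose, unlike Fgf8 and Fgf17, while Eomes fell (log2 -1.28, edgeR adjusted p = 0.0084). Mixl1 and Mesp1 were at 0 to 6 counts throughout. Like Fgf8, Cer1 was higher in cAMP library 2 than in library 1. Of the neural progenitor genes 3 of 8 fell with 4OHT (Sox1, Sox3, Tubb3; summed 85.0 to 87.4 CPM in cAMP and 64.8 to 69.1 in 4OHT), of the endothelial genes 3 of 6 (Kdr, Cdh5, Tie1, while Pecam1 rose; summed 158 to 167 and 180 to 181), of the epithelial genes 3 of 6 (961 to 1031 and 700 to 774) and of the endoderm genes none of 6. Of the 7 thyroid genes Tg and Slc5a5 fell with 4OHT, and 4 rose and none fell under the inhibitors, where Fgfr2 also rose. In that comparison 3 of 8 naive pluripotency genes also rose and none fell. The epithelial genes went mostly the other way there, with 1 of 6 rising and 4 falling. Of the mesenchymal genes 4 of 8 rose with 4OHT, and 3 rose and 1 fell under the inhibitors. Their summed level was 1141 to 1237 CPM in cAMP, 2168 to 2281 in 4OHT, and 3947 to 4606 under the inhibitors. Most of this sum came from the collagen genes Col1a1, Col1a2 and Col3a1. The means of these 3 were 386, 324 and 246 CPM in cAMP and 1345, 1307 and 1337 under the inhibitors. Pdgfra had means of 152, 136 and 139 CPM in cAMP, 4OHT and PD+LY, and Twist1 3.03, 3.92 and 1.93. Beside these counts, 4.04% of all genes tested rose and 4.35% fell with 4OHT, and 10.7% rose and 12.1% fell under the inhibitors. The part of these markers in the members' changes was not tested.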

How the data were processed

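Bulk RNA-seq of 6 libraries (3 groups, 2 each, by sample title) was used. According to the methods, the authors trimmed paired-end reads from a stranded mRNA kit with Trimmomatic, mapped them to mm10 with HISAT2 and counted them per gene with HTSeq without strand, and the deposited values are raw counts per gene symbol. No versions of HISAT2 and HTSeq are given in the sources used here, and without strand a gene and its antisense partner share reads.

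Tests were run with edgeR 4.0.16 (R 4.3.3). After filterByExpr, with minimums of 10 counts and 15 in total, 15256 of 25239 genes remained, and 1 quasi-likelihood model with TMM factors and 3 groups was fitted to all libraries, with Benjamini-Hochberg adjustment over all genes tested. The thresholds were 0.05 on the adjusted p and, where said, 2-fold. The scripts were first tested on simulated data. Alternatives were DESeq2 1.42.0, RLE size factors, no filter, the 2 groups alone, the replicate number as a block and leaving out each library. Exon lengths and positions are from GENCODE M21 (GRCm38), in which 24366 symbols were found, and promoter windows from RefSeq. Replicates differed by more than counting noise (chi-square per degree of freedom 4.63 to 18.4). A count floor of 3 covers counting error only.

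The 10 members, 7 pathway lists and 9 marker lists were chosen with earlier results of these data known, and 1 marker is not reported here. All members are named, and of each pathway list the genes past both thresholds (at most the 3 largest per direction). Genes with a like pattern are the 3 with the highest Pearson r of log2 CPM (prior count 2).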

Additional observations from a re-analysis of the deposited data

How the results depend on the processing

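The comparisons are named in the order of the report. The numbers of members changed (5 in the first comparison, 5 in the second and 7 in the third) moved by less than 1.5 times under DESeq2, RLE size factors, no filter, the 2 groups alone and the replicate block. Leaving out 1 library gave 2 to 5, 3 to 5 and 5 to 8. In the first comparison the number was 2 without cAMP library 2 or 4OHT library 1 and 3 without 4OHT library 2, and in the second 3 without either 4OHT library. Past both thresholds, where all libraries gave 4 in each comparison, leaving out 1 gave 2 to 4 in the first, 3 in every case in the second and 4 in every case in the third, with 2 in the first without cAMP library 2, 4OHT library 1 or 4OHT library 2. That each such fit leaves a group with 1 library, assumed to vary like the others, is part of its construction, and the cause of single lost calls was not tested.

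Of 265 values of single members under the alternatives, 235 kept their direction and side of the threshold, 20 lost the call, 5 gained it and 5 turned direction. Those that turned were not called in either setting: Fgf4 in 4OHT against cAMP without 4OHT library 2 (-0.0018; 0.18 without library 1), Fgf2 in PD+LY against 4OHT without 4OHT library 1 (0.78) or PD+LY library 2 (0.53), against a lowest value of -0.99, Fgf5 in PD+LY against 4OHT without 4OHT library 2 (0.37; -0.75 without library 1), and Fgf2 in PD+LY against cAMP without PD+LY library 1 (-0.035, with up to 1.49 otherwise). With the length of the longest transcript the share of Fgfr2 among the receptors became 27.2%, 18.5% and 37.8% in cAMP, 4OHT and PD+LY, that of Fgfr4 11.3%, 14.8% and 5.55%, and that of Fgf4 among the ligands in 4OHT 94.0%.

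The sources used here do not say whether libraries with the same replicate number belong together. Over 15256 genes the correlation of same-numbered deviations was 0.072, 0.059 and 0.21 in the 3 comparisons. Since each group has only 2 replicate numbers, these values cannot settle whether the libraries are paired. With the replicate block 5, 5 and 8 members changed, the added member being Fgfr1 in PD+LY against cAMP (log2 0.26, edgeR adjusted p = 0.0308), and over all genes tested the number changed went from 1280 to 2373, 3469 to 4742 and 3925 to 5057. Depth limits Fgf2, Fgf8 and Fgf17, with 4 to 14 counts in some libraries.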
